A study of Mus musculus with 6 samples.

Results

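The genes described here encode the machinery that makes microRNAs (miRs) and carries out silencing by them: *Drosha*, *Dgcr8*, *Xpo5*, *Dicer1*, *Ago1*, *Ago2*, *Ago3*, *Ago4*, *Tnrc6a* and *Tnrc6b*. They were chosen by name for these roles, matched to Ensembl identifiers, and make up 10 of the 55401 genes in the count table. RNA was sequenced from whole mouse embryos at E10.5 (embryonic day), of 2 genotypes on a C57BL/6J background. Wild-type (WT) embryos had an unmodified *Igf2* locus, and 5C embryos carried 5 tandem extra copies of *Mir483*, a miR gene hosted by an *Igf2* intron, at that locus. Each genotype had 3 libraries, and by the study's methods each was made from 2 pooled male embryos and the 5C allele was passed on by chimeric males. The comparison asks whether transcripts of the miR machinery differ in embryos given more of 1 miR gene. Several limits of the samples bear on every value. Whole embryos mix many cell types, so fewer cells of a type and less RNA per cell cannot be told apart. Poly(A)-selected libraries measure the messenger RNAs of the machinery, not its proteins, and they do not measure mature miRs.

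A miR starts as a hairpin within a longer nuclear transcript. The Microprocessor, built of the RNase DROSHA and its RNA-binding partner DGCR8, cuts the hairpin out, exportin 5 carries it to the cytoplasm, and DICER1 cuts off the loop. One strand of the resulting duplex is loaded into an Argonaute protein, which finds target messenger RNAs through the seed near the 5′ end of the miR, and TNRC6 proteins link the Argonaute to the deadenylation and decapping enzymes. Embryos without *Dicer1*, *Dgcr8* or *Ago2* are known to die during gestation.

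The substrate that is in excess in 5C is shown first, because its seeds are the letters searched for in the machinery genes below. The *Mir483* hairpin lies at chr7:142654924-142654996 on the minus strand of GRCm38 and is 73 bases long. It is written 5′ to 3′ from RefSeq (GRCm38.p6), with both mature arms in capitals for the hairpin and the seed, bases 2 to 8, in capitals for each arm.
Mir483 hairpin: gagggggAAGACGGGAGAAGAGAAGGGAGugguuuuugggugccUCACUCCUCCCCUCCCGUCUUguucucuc
mmu-miR-483-5p: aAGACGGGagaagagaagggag
mmu-miR-483-3p: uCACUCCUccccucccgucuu

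The 3′ UTRs of the 10 genes, each taken from the longest annotated coding transcript, were searched on the sense strand for AGGAGTG, the 7 letters that pair with the miR-483-3p seed, and for CCCGTCT, which pair with the miR-483-5p seed. Matches were found in *Drosha*, *Dicer1*, *Ago3* and *Tnrc6b*. The windows are given on the sense strand of each gene from GRCm38, with the match in capitals, because these are the positions at which the machinery transcripts carry letters complementary to the miR.
Drosha, chr15:12935123-12935148, plus strand, miR-483-3p: acgagggcAGGAGTGgcggagcattg
Dicer1, chr12:104691339-104691367, minus strand, miR-483-3p: tgcttagtcacAGGAGTGctttaatcctg
Dicer1, chr12:104689306-104689334, minus strand, miR-483-3p: gacgcgcgatcAGGAGTGcgtttgtttgt
Dicer1, chr12:104690544-104690572, minus strand, miR-483-5p: gccaggaccaaCCCGTCTggggtagaagt
Ago3, chr4:126340395-126340423, minus strand, miR-483-3p: cacccatcaaaAGGAGTGccccagagttt
Ago3, chr4:126333407-126333435, minus strand, miR-483-3p: ggacctttctgAGGAGTGaactgtaaatt
Tnrc6b, chr15:80932878-80932906, plus strand, miR-483-3p: gttgagctcgtAGGAGTGacaccacattg

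In the second *Ago3* window and in the *Tnrc6b* window the match is followed by an A, the form called an 8mer. A miR-483-3p match occurred in 4 of the 10 genes (40%) and in 1729 of 13837 tested genes with a 3′ UTR of at least 30 bases (12.5%), and a miR-483-5p match in 1 of the 10 and in 478 of those genes (3.45%). The median 3′ UTR was 3766.5 bases in the 10 genes and 1208 bases in the comparison genes, and a longer UTR holds more chance matches. A match is a description of the letters and not a measured site.

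Depth and tissue makeup differed between the libraries. Totals ranged from 6357343 counts in WT replicate 3 to 19151368 counts in WT replicate 1. Thus 3 counts, taken as the floor, correspond to 0.157 to 0.479 CPM (counts scaled to the TMM-adjusted library total). Counts in *Mir483* were 11, 5 and 2 in WT replicates 1, 2 and 3 and 85, 51 and 36 in 5C replicates 1, 2 and 3, each 5C library above each WT library. The 8.29-fold difference had an adjusted p of 0.169 in edgeR's quasi-likelihood test. All 15 markers of the embryo proper were detected, and summed to 660.1, 716 and 711 CPM in WT replicates 1 to 3 and to 637, 657 and 658 CPM in 5C replicates 1 to 3. Every 5C library was thus below every WT library in this sum, but by little between WT replicate 1 and 5C replicate 3. The markers did not move together. Of the 15, 10 had a lower estimate in 5C and 5 a higher one. The largest falls in mean were in *Myh6*, from 73.3 CPM in WT to 40.4 CPM in 5C, and *Myh7*, from 82.9 to 60.0 CPM. Both genes had every 5C library below every WT library, and so weigh on the sum. The heart markers *Tnnt2* (mean 49.7 CPM in WT, 44.1 CPM in 5C) and *Nkx2-5* (2.73 and 2.71 CPM) overlapped between genotypes. By contrast *Sox2* rose from 78.1 to 92.7 CPM and *Pax6* from 49.2 to 54.9 CPM. *Nkx2-1* went the other way, from 2.12 to 1.80 CPM, with the genotypes overlapping. The 12 yolk sac endoderm markers summed to 6919 CPM in WT replicate 1, 293 to 580 CPM in the other WT libraries, 1397 CPM in 5C replicate 3 and 205 to 224 CPM in the other 5C libraries, with none of the 12 at 0 throughout. Primitive erythroid markers (6 genes) summed to 9105 to 12459 CPM in WT and 8324 to 16211 CPM in 5C. Trophoblast markers (8 genes) summed to 2.39 to 5.84 CPM in WT and 1.28 to 8.04 CPM in 5C, and markers of decidua and uterine natural killer cells (9 genes) to 38.7 to 82.3 CPM and 47.1 to 89.9 CPM. The 4 Y-linked transcripts summed to 4.12 CPM in WT replicate 2 and 0.0854 CPM in 5C replicate 2, against 130.4 to 212 CPM in the other 4 libraries, so that both replicate 2 libraries stood apart from a description as male pools. The part of tissue makeup and of embryo sex in the differences below was not tested, and values without these libraries are given where they move a result.

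None of the 10 genes passed the test between genotypes. In edgeR's quasi-likelihood test their adjusted p lay between 0.781 and 0.957, and 0 of 10 were called against 0% of the 16784 genes tested. DESeq2 and limma-voom also called 0 of the 10. The study, also with edgeR quasi-likelihood F-tests, reported changed genes in these embryos, with *Igf2* among those lower. What lies behind this difference in calls was not tested. All 10 point estimates were below WT, with a median log2 fold change of -0.07, while over all genes tested 50.7% were lower and the median was -0.00244. One of the 10, *Ago2*, had an unadjusted p under 0.05, against 3.47% of all genes lower and 2.55% higher at that level, and no member was higher at that level. One, *Tnrc6a*, had every 5C library below every WT library, against 5.1% of all genes, and no member had every 5C library above every WT library, against 6.26%. The 10 genes share the same 6 libraries, so their directions are not independent of each other. The median moved with single libraries, to -0.11 without WT replicate 2, -0.10 without 5C replicate 1, -0.05 without WT replicate 3 and -0.04 without 5C replicate 3.

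**Figure D1:**
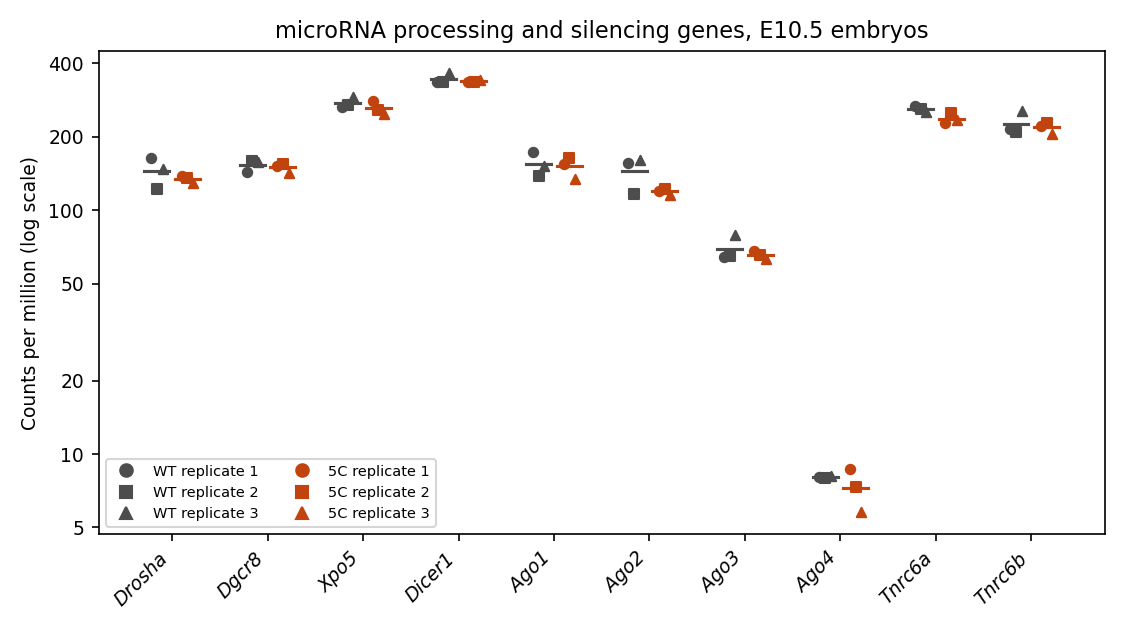
Level of each gene in CPM (log axis) in the 3 WT libraries (grey) and the 3 5C libraries (orange), with the replicate number given by the marker and the genotype mean by the short line. The genotypes overlap in every gene except *Tnrc6a*, whose 5C libraries lie between 228 and 251 CPM and WT libraries between 253 and 267 CPM.

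*Drosha* (ENSMUSG00000022191, chr15:12824815-12935291, plus strand) encodes the nuclear RNase that cuts primary transcripts. It measured 164, 123 and 147 CPM in WT replicates 1 to 3 against 138, 135 and 129 CPM in 5C replicates 1 to 3. Both the highest and the lowest library were WT, so the 5C range lay inside the WT range. The means were 145 ± 20.7 CPM (SD, n = 3) and 134 ± 4.62 CPM (SD, n = 3). The log2 fold change was -0.11 ± 0.10 (SE), and edgeR's quasi-likelihood test gave an adjusted p of 0.821. Leaving out WT replicate 2, the lowest, gave -0.22 with an unadjusted p of 0.0172, and leaving out WT replicate 1, the highest, gave -0.01. The estimate therefore moved by about its own size with a single WT library.

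*Dgcr8* (ENSMUSG00000022718, chr16:18253948-18289246, minus strand) encodes the RNA-binding partner of DROSHA in the Microprocessor. Its levels were 144, 159 and 157 CPM across the WT libraries against 152, 154 and 143 CPM in 5C. The 2 ranges nearly coincided, with the lowest library of each genotype close to the other. The log2 fold change was -0.03 ± 0.07 (SE), and the fold had a 95% interval of 0.880 to 1.09. Leaving out 5C replicate 3 brought the estimate to 0.00154.

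The *Dgcr8* transcript is also a substrate of the Microprocessor, since another miR hairpin, *Mir1306*, lies inside its coding exons, at chr16:18284239-18284317 on the minus strand. All 79 bases of the hairpin are under *Dgcr8* exons. Its arms, from RefSeq (GRCm38.p6) with the seeds in capitals, are shown because they are read from within a machinery gene and share no seed with *Mir483*.
mmu-miR-1306-5p: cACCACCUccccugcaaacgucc
mmu-miR-1306-3p: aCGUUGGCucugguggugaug

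*Mir1306* was listed at 0 counts in all 6 libraries. Reads under exons of more than 1 gene on a strand are not counted by STAR, so this 0 gives no level. In total 494 exon bases of *Dgcr8* (6.42%) are shared with annotated genes on the same strand and 825 (10.7%) lie opposite exons of *Trmt2a*. Reads from these bases may be missing from its level, whereas *Xpo5*, *Dicer1*, *Ago1*, *Ago3* and *Ago4* share no exon base with another gene.

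*Xpo5* (ENSMUSG00000067150, chr17:46202782-46243598, plus strand) encodes exportin 5, the carrier of precursor hairpins through the nuclear pore. It measured 265, 271 and 292 CPM across the WT libraries against 280.0, 258 and 249 CPM in 5C. One 5C library lay above 2 of the WT libraries, and the lowest 2 libraries were both 5C. The log2 fold change was -0.07 ± 0.07 (SE). It was -0.12 without 5C replicate 1, -0.03 without 5C replicate 3 and -0.04 without WT replicate 3.

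*Dicer1* (ENSMUSG00000041415, chr12:104687742-104751952, minus strand) encodes the RNase that turns precursors into duplexes. Its levels were 337, 337 and 366 CPM across the WT libraries against 335, 336 and 343 CPM in 5C. All but 1 of the 6 libraries lay between 335 and 343 CPM, and WT replicate 3 lay higher. The coefficient of variation was 4.90% in WT and 1.23% in 5C. The log2 fold change was -0.04 ± 0.06 (SE), and its fold interval, 0.885 to 1.08, lay inside a 1.5-fold change in either direction. Without WT replicate 3 the estimate was -0.00212, and without WT replicate 1 or 2 it was -0.06.

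**Figure D2:**
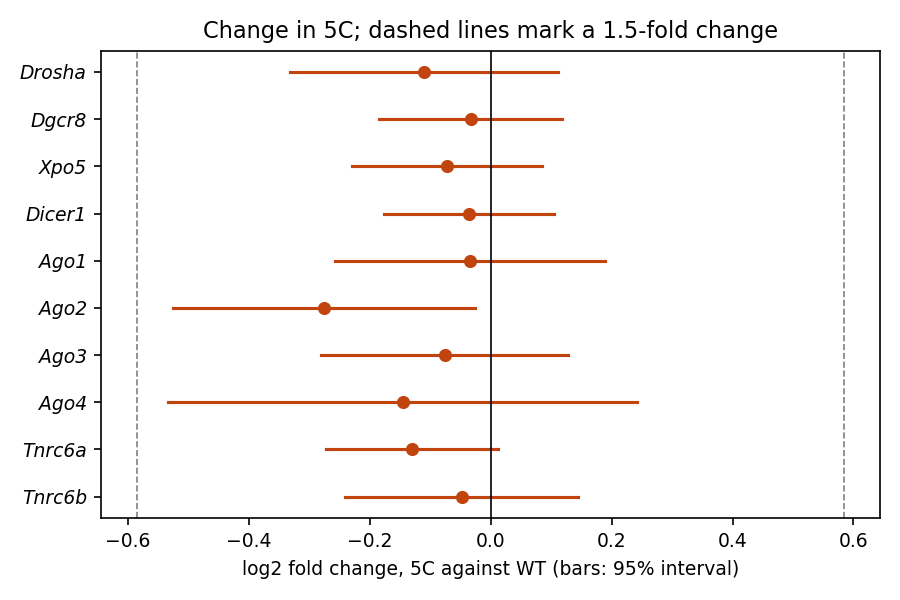
Log2 fold change of each gene in 5C against WT (points) with its 95% interval (bars), and dashed lines at a 1.5-fold change. All 10 intervals lie between the dashed lines, 9 of them include 0, and that of *Ago2* lies just below 0.

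The plot of fold changes shows how closely the libraries bound the differences. All 10 intervals lay within a 1.5-fold change, from a lowest bound of 0.691-fold to a highest of 1.18-fold, both in *Ago4*. Of the 10 intervals, 9 included no change. These intervals are for each gene alone and are not adjusted for the number of genes.

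*Ago2* (ENSMUSG00000036698, chr15:73095844-73184935, minus strand) encodes the Argonaute known for cutting fully paired targets. It measured 156, 117 and 161 CPM in WT replicates 1 to 3 against 120.2, 122 and 116 CPM in 5C replicates 1 to 3. WT replicates 1 and 3 lay above every 5C library, whereas WT replicate 2 lay within the 5C range. The means were 145 ± 24.3 CPM (SD, n = 3) and 119 ± 3.33 CPM (SD, n = 3), a log2 fold change of -0.28 ± 0.11 (SE). In edgeR's quasi-likelihood test p was 0.0338 before adjustment and the adjusted p was 0.781, so *Ago2* did not pass.

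*Ago2* had the largest log2 difference of the 10 genes, and the single libraries moved it. It was lower in all 20 alternative settings, with a log2 fold change from -0.43 to -0.19, and its unadjusted p was under 0.05 in 13 of them. The smallest adjusted p over these settings was 0.109, with no count filter in edgeR's quasi-likelihood test. Leaving out WT replicate 2, the WT library with few Y-linked counts, gave -0.41. In the same test its unadjusted p was 0.000189 and its adjusted p 0.205. Leaving out WT replicate 3 gave -0.20 and leaving out WT replicate 1 gave -0.21, with unadjusted p of 0.132 and 0.108. Leaving out WT replicate 1 and 5C replicate 3 together, the libraries highest in yolk sac markers, gave -0.19 with an unadjusted p of 0.167. *Ago2* carries no miR-483 match in its 3′ UTR of 11064 bases.

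*Ago1*, *Ago3* and *Ago4* lie next to each other on the minus strand of chromosome 4, over 201769 bases, with 5455 bases between *Ago3* and *Ago1* and 20957 bases between *Ago1* and *Ago4*. *Ago1* (ENSMUSG00000041530, chr4:126435012-126468583) measured 173, 139 and 152 CPM across the WT libraries against 155, 164 and 134 CPM in 5C. The highest library was WT and the lowest 5C, with the others interleaved. Its log2 fold change of -0.03 ± 0.10 (SE) turned to 0.06 without WT replicate 1, to 0.05 without 5C replicate 3 and to 0.14 without both.

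*Ago3* (ENSMUSG00000028842, chr4:126331704-126429556) measured 64.3, 65.1 and 79.3 CPM across the WT libraries against 68.0, 65.7 and 63.3 CPM in 5C. WT replicate 3 stood above the other 5 libraries, which lay between 63.3 and 68.0 CPM. Its log2 fold change of -0.08 ± 0.09 (SE) was 0.01 without that library.

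*Ago4* (ENSMUSG00000042500, chr4:126489541-126533472) was the least abundant member, at 8.03, 7.99 and 8.14 CPM across the WT libraries against 8.67, 7.34 and 5.77 CPM in 5C. The WT libraries lay close together while the 5C libraries lay on both sides of them, and the coefficient of variation in WT was 0.970%. These levels rest on 51 to 153 counts, for which counting alone gives a coefficient of variation of 8.08% to 14.0%, larger than the WT spread. The exact Poisson 95% intervals, which cover counting error only, were 7.30 to 10.2 CPM in 5C replicate 1 and 4.58 to 7.17 CPM in 5C replicate 3, and so did not meet. The log2 fold change was -0.15 ± 0.17 (SE), with -0.00317 without 5C replicate 3 and -0.30 without 5C replicate 1.

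Levels per length show which Argonaute transcripts make up the pool. As a share of the summed CPM per kilobase of exon, *Ago1* took 56.9, 56.0 and 51.8% in WT replicates 1 to 3 and 57.9, 59.5 and 56.2% in 5C replicates 1 to 3. *Ago2* took 29.6, 27.3 and 31.8% in WT and 25.9, 25.7 and 28.03% in 5C. The *Ago1* share was thus higher by 2.96 percentage points and the *Ago2* share lower by 3.04 points in 5C, and in each the genotypes overlapped. The exact permutation test, two-sided, gave p = 0.2 for each, or 0.4 after adjustment over the 4 shares, in a design that cannot go below 0.1. Without WT replicate 3 the differences were 1.39 and -1.93 points, and over each library left out they ranged up to 3.97 points for *Ago1* (without WT replicate 1) and to -4.17 points for *Ago2* (without WT replicate 2).

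*Ago3* and *Ago4* were minor parts of the pool. The *Ago3* share was 12.2 ± 1.57% (SD, n = 3) in WT and 12.4 ± 0.657% (SD, n = 3) in 5C, and that of *Ago4* was 3.37 ± 0.361% and 3.24 ± 0.487%, with adjusted p of 0.9 for both in the exact permutation test. Using the length of the longest coding transcript in place of all exons gave median shares of 58.6, 25.9, 12.4 and 3.12% for *Ago1* to *Ago4*, in the same order. The stacked shares by library show the same ranking in all 6.

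**Figure D3:**
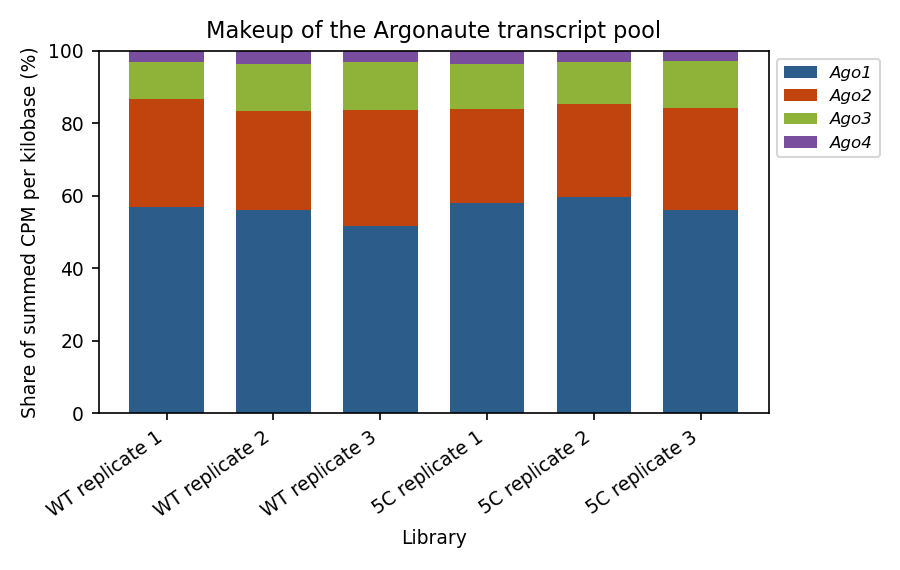
Share of each Argonaute gene in the summed Argonaute CPM per kilobase of exon, in percent, stacked by library. *Ago1* takes 51.8 to 59.5% and *Ago2* 25.7 to 31.8% in every library, followed by *Ago3* and *Ago4*.

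The TNRC6 genes encode the scaffolds that recruit deadenylases to an Argonaute. *Tnrc6a* (ENSMUSG00000052707, chr7:123123885-123195296, plus strand) measured 267, 259 and 253 CPM across the WT libraries against 228, 251 and 233 CPM in 5C. Every 5C library lay below every WT library, by a margin smaller than the gaps between WT libraries. The means were 260 ± 6.84 CPM (SD, n = 3) and 238 ± 11.8 CPM (SD, n = 3). The log2 fold change was -0.13 ± 0.06 (SE), and in edgeR's quasi-likelihood test p was 0.0684 unadjusted, or 0.781 as an adjusted p. *Tnrc6a* lies on chromosome 7, as does the edited locus, with the *Mir483* hairpin at chr7:142654924-142654996. Any bearing of this position on its level was not tested.

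*Tnrc6b* (ENSMUSG00000047888, chr15:80711313-80941085, plus strand) measured 214, 209 and 255 CPM across the WT libraries against 221, 229 and 205 CPM in 5C. WT replicate 3 was the highest, and the remaining 5 libraries were interleaved. Its log2 fold change of -0.05 ± 0.09 (SE) became 0.04 without WT replicate 3. The third family member, *Tnrc6c*, chosen for mention with its values known, had levels of 130, 108 and 111 CPM across the WT libraries against 123, 136 and 118 CPM in 5C. Its log2 fold change was 0.11 ± 0.09 (SE) and an adjusted p of 0.807 in edgeR's quasi-likelihood test. *Tnrc6c* thus had an estimate of the opposite sign to the other 2, and the difference between them was not tested.

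Looked at by library, the highs and lows clustered. WT replicate 3, the library with the fewest counts, was the highest for 5 of the 10 genes. WT replicate 1 was the highest for 3, whereas 5C replicate 3 was the lowest for 7. The median log2 deviation of the 10 genes from their means was 0.03, -0.04 and 0.10 in WT replicates 1 to 3 and 0.00242, -0.03 and -0.11 in 5C replicates 1 to 3. The summed level of the 10 genes was 1792, 1686 and 1871 CPM across WT libraries against 1707, 1722 and 1620.4 CPM in 5C, with means of 1783 ± 93.0 CPM (SD, n = 3) and 1683 ± 54.9 CPM (SD, n = 3). WT replicate 2 lay below 2 of the 5C libraries, so the genotypes overlapped. The grid of deviations shows that no library was high or low in all 10 genes.

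**Figure D4:**
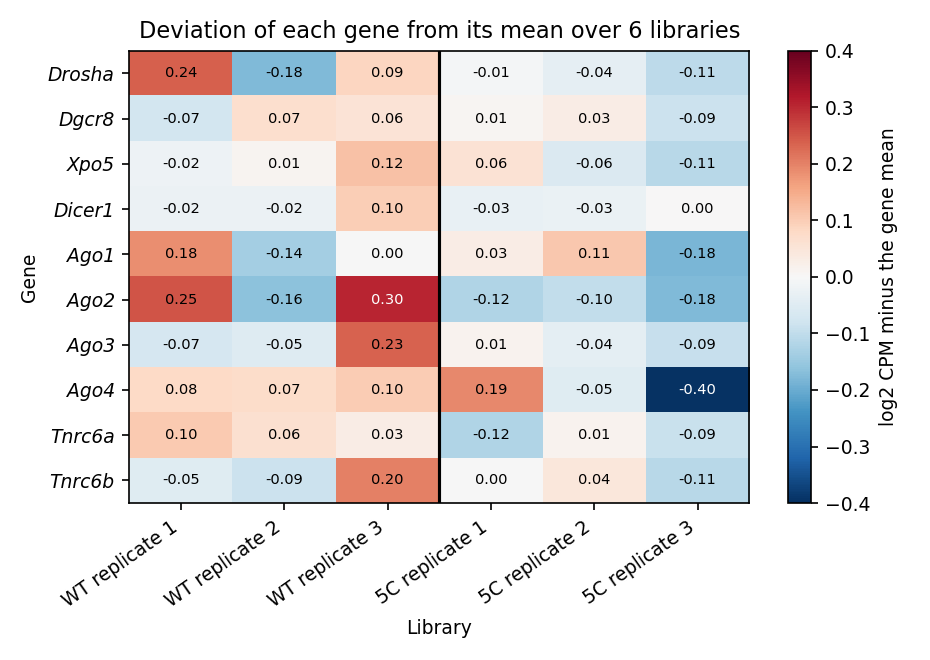
Log2 CPM of each gene (rows) in each library (columns) minus the mean of the gene over the 6 libraries, red above and blue below the mean, with WT left of the line. WT replicate 3 is highest for *Ago2* at 0.30 and 5C replicate 3 lowest for *Ago4* at -0.40.

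The number of genes below WT depended on these libraries. It was 9 of 10 without WT replicate 1, 8 without WT replicate 3, 8 without 5C replicate 3, and 8 without both WT replicate 1 and 5C replicate 3. Without both replicate 2 libraries, it was 10 and the median log2 fold change was -0.15.

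Compared per kilobase of exon, the level of *Xpo5* was the highest, with a median over libraries of 39.1 CPM per kb (36.3 to 42.5). Below it came *Drosha* at 23.0, *Dicer1* at 20.1, *Dgcr8* at 19.9, *Tnrc6a* at 19.8 and *Ago1* at 18.9 CPM per kb. The libraries of neighbours within this middle group overlapped. *Tnrc6b* at 9.20, *Ago2* at 8.63, *Ago3* at 3.94 and *Ago4* at 1.15 CPM per kb followed, with *Tnrc6b* and *Ago2* overlapping and *Ago3* and *Ago4* each apart from the gene above. *Xpo5* and *Ago1* were likewise apart from the gene below them. With the length of the longest coding transcript, the order within the middle group changed, to *Dgcr8*, *Dicer1*, *Tnrc6a*, *Drosha* and *Ago1*, whereas *Xpo5* stayed highest and the last 4 kept their order.

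The log2 fold changes were set beside the seed matches. The 4 genes with a miR-483-3p match had a median log2 fold change of -0.06 (from -0.11 to -0.04), and the 6 genes without a match had a median of -0.10 (from -0.28 to -0.03). The ranges overlapped, and *Ago2*, *Ago4* and *Tnrc6a*, the 3 lowest, hold no match. *Ago3* and *Tnrc6b*, which hold the 8mer matches, had log2 fold changes of -0.08 and -0.05. No test was made over so few genes.

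The other genes of the pathway were read in 7 lists of 67 genes, of which 63 passed the filter. None was called in edgeR's quasi-likelihood test, with adjusted p from 0.781 to 1. Their log2 fold changes had a median of -0.03, with 36 lower and 27 higher. At an unadjusted p under 0.05, 7 were lower and 0 higher, against the 3.47% and 2.55% of all genes. The groups did not overlap in 8 that were lower and 3 that were higher, against 5.1% and 6.26% of all genes tested.

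By role, 7 of 11 Microprocessor cofactors were below WT. *Safb* and *Safb2*, which encode RNA-binding proteins of the nuclear matrix, had log2 fold changes of -0.23 and -0.20, with unadjusted p of 0.0239 and 0.0423. Of the 10 export, Dicer partner and loading genes, 6 were lower. *Tarbp2*, which encodes a partner of DICER1, had the most negative estimate of all pathway genes at -0.34 (SE 0.13). It measured 18.2, 22.2 and 16.6 CPM across the WT libraries against 15.03, 14.9 and 15.2 CPM in 5C, with every 5C library below every WT library, and had an adjusted p of 0.781 in edgeR's quasi-likelihood test. *Adar*, which encodes an RNA editing enzyme, was at -0.21.

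The tailing and decay genes (7 of 8 tested) had 3 lower and a median of 0.04. In this list *Snd1*, encoding a nuclease-like protein of the silencing complex, was at -0.21, and *Tut4*, a terminal uridylyltransferase that tails precursors, at 0.13, with every 5C library above every WT library. Among *Tnrc6c* and the Argonaute regulators, 5 of 8 were lower. *Trim71*, an RNA-binding ubiquitin ligase family member of early embryos, was at -0.23, and *Zswim8*, part of the ubiquitin ligase of target-directed miR decay, at -0.26, with unadjusted p of 0.0239 and 0.0433.

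The last lists hold the enzymes that act after an Argonaute has bound its target. The 14 deadenylation genes split into 7 lower and 7 higher with a median of -0.00557, and *Cnot3* and *Cnot2*, subunits of the CCR4-NOT complex, were at -0.22 and 0.11. Of 13 decapping, repression and decay genes, 8 were lower, with a median of -0.02, and *Edc4* and *Dcp2*, a decapping scaffold and the decapping enzyme, were at -0.22 and 0.11. No gene of either list had an unadjusted p under 0.05. The PIWI branch, known from the germline, passed the filter in 0 of 3 genes, with *Piwil1* at 0.071 to 0.303 CPM, *Piwil2* at 0.285 to 0.687 CPM and *Piwil4* at 0.485 to 1.12 CPM. The plot of fold changes by role shows the lists side by side.

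**Figure D5:**
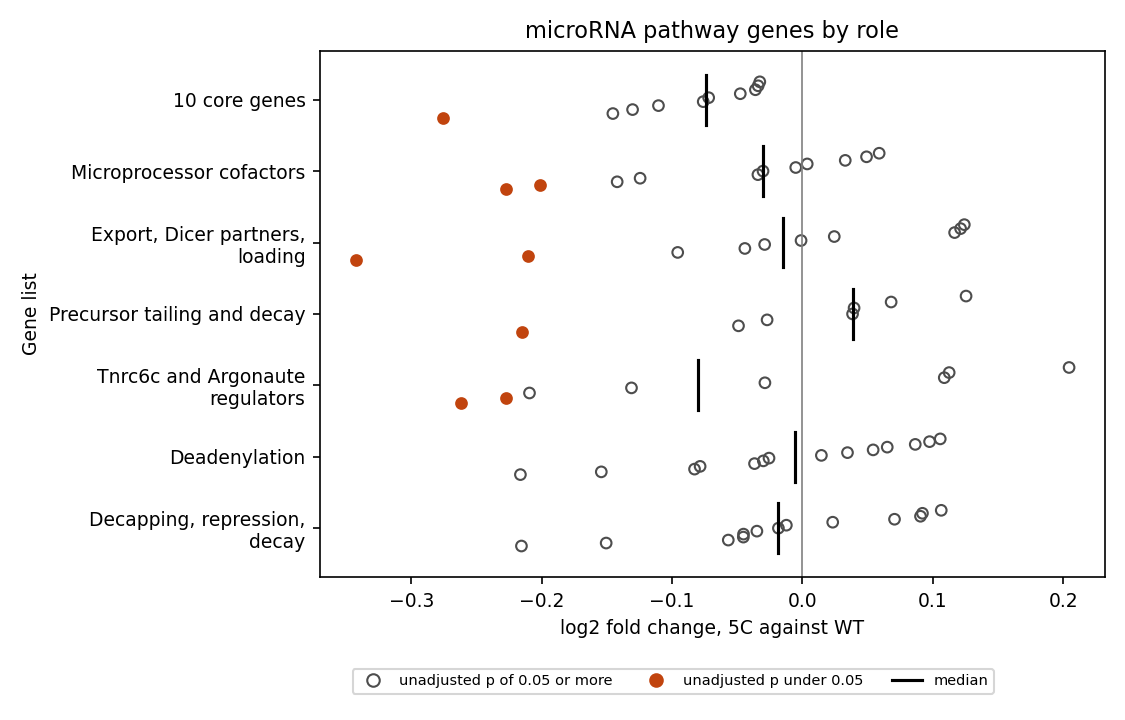
Log2 fold change in 5C against WT of each tested gene (circles) by role, with the list median as a black line and genes at an unadjusted p under 0.05 filled. The 10 core genes lie below 0 and the other 6 lists lie on both sides of it, with medians from -0.08 to 0.04 and the PIWI list not tested.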

How the data were processed

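The authors prepared TruSeq Stranded mRNA libraries, aligned single-end reads to GRCm38 with STAR and an Ensembl annotation, and deposited raw counts per gene, which were used as deposited. The strand column taken from STAR was not given in the sources used here. Gene symbols, exons and UTRs came from GENCODE vM21, which held 55141 of the 55401 identifiers. Counts were tested with edgeR 4.0.16 (R 4.3.3): filterByExpr on genotype, TMM scaling and legacy quasi-likelihood F-tests, two-sided, with Benjamini-Hochberg adjustment over 16784 genes and a threshold of 0.05. The standard error was the absolute log2 fold change over the square root of F. Log2 deviations of the 10 genes used CPM with no prior count. A prior count of 2 was used for the GC offsets and the correlations between libraries. Alternatives were RLE scaling, library size alone, no count filter, at least 10 counts in every sample, DESeq2 1.42.0, limma-voom (limma 3.58.1), the newer quasi-likelihood form, robust moderation, a replicate block, offsets for transcript GC content, removal of mitochondrial and globin genes, each library left out, and 2 pairs of libraries left out, the last chosen after seeing the data. The fits were tested on simulated data.

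The 10 genes, the pathway and marker lists and the alternatives were chosen with earlier results of these data known. Named genes were the 10, *Mir483*, and the 2 tested genes with the smallest unadjusted p in each pathway list. *Tnrc6c*, the 3 PIWI genes, which did not pass the filter, and *Mir1306* were named outside this rule, with their values known. So were the markers *Myh6*, *Myh7*, *Sox2* and *Pax6*. No label says that replicates are separate litters, so p-values measure the spread between these pools. The libraries all differed by more than sampling noise (chi-square per gene of at least 5.77 between any 2).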

Additional observations from a re-analysis of the deposited data

How the results depend on the processing

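None of the 10 genes was called under any of the 20 alternatives. Genes called over the whole table, 0 here, numbered 416 with no count filter, 21 with DESeq2, 3 with robust moderation, 2 without WT replicate 1 and 5C replicate 3 together, and 0 to 1 with each library left out. Members at an unadjusted p under 0.05 numbered 2 with GC offsets (*Ago2* and *Tnrc6a*), 0 with GC offsets and the replicate block, 0 without that pair of libraries and 0 to 2 with each library left out. The median log2 fold change of the 10 was -0.15 without both replicate 2 libraries and -0.07 with the replicate block, in which *Ago2* was at -0.26 with an unadjusted p of 0.0458. Correlations of same-numbered libraries were -0.17, 0.20 and -0.17. Their mean was -0.05, against 0.02 for libraries of other numbers, so the numbers gave no clear pairing. With each library left out the log2 fold change of *Ago1* ranged from -0.108 to 0.0589, of *Ago3* from -0.129 to 0.0149, of *Tnrc6b* from -0.0993 to 0.0376 and of *Dgcr8* from -0.0769 to 0.00154. Without WT replicate 1 and 5C replicate 3 together, *Drosha* was at 0.0214 and *Ago1* at 0.137. The difference in *Ago3* share ranged from -0.697 to 0.735 percentage points and in *Ago4* share from -0.396 to 0.0794 points with each library left out. Pathway genes lower at an unadjusted p under 0.05, 7 here, numbered 3 with library size alone, 3 with GC offsets, 2 with GC offsets and the replicate block, 2 without both replicate 2 libraries, and 1 to 6 with each library left out, the 1 being without 5C replicate 2. Those higher, 0 here, numbered 1 with library size alone, 1 with no filter, 1 without WT replicate 1 and 5C replicate 3, and 0 to 3 with each library left out. *Mir483* passed the threshold with no filter (3.06), DESeq2 (3.09), robust moderation (3.05) and without WT replicate 1 and 5C replicate 3 (3.58), and ranged from 2.83 to 3.34 with each library left out, passing without 5C replicate 3. The causes were not tested. Over 16770 genes the log2 fold change had a Spearman correlation of -0.31 with transcript GC content, and GC of the 10 genes ran from 41.8% in *Ago3* to 52.0% in *Drosha*. Depth limits *Ago4* most.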
